A study of Mus musculus with 3 samples.

Results

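Fibromodulin, decorin, lumican, biglycan, osteoglycin and versican, proteoglycans of the dermal matrix, were followed across cultured mouse dermal fibroblasts of 3 genotypes. The rule named 7 genes (Fmod, Dcn, Lum, Bgn, Ogn, Prelp and Vcan) and took every probe set annotated to exactly 1 of these symbols. It found 7 probe sets for 6 genes, of 7842 named genes in all. Ogn had 2 probe sets, the other 5 genes had 1 each, and Prelp was not analysed here. All 6 genes were above the level taken as measurable on all 3 arrays.

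In FGFR3Act cells the receptor tyrosine kinase gene Fgfr3 carries the G374R change without the neo cassette (Fgfr3G374Rneo-), and the receptor signals without ligand. FGFR3KO cells came from mice that carry the same change with the cassette kept (FGFR3G374Rneo+) and make no functional receptor, per the labels. Wild-type Bl6 mice gave the FGFR3WT cells. The 2 mutant groups share the G374R allele and differ in the cassette. The labels name a strain only for the wild type and give no age, sex or passage, and no treatment was applied. The series title names Fgfr3 signalling and profibrotic regulation as its subject.

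Small leucine-rich proteoglycans are secreted proteins built of leucine-rich repeats that bind collagen fibrils and set their spacing and diameter. They fall into classes by sequence. Decorin and biglycan, of class I, carry chondroitin or dermatan sulfate chains. Fibromodulin, lumican and Prelp, of class II, are fibril-binding proteins, of which fibromodulin and lumican can carry keratan sulfate, and osteoglycin belongs to class III. Versican is not a member of that family. It is a large chondroitin sulfate proteoglycan that binds hyaluronan and is typical of the loose matrix around dividing and migrating cells.

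Each genotype had 1 array column, although the series states n = 3 per group. No replicate error could be computed, no test was run, and every difference is one between single arrays. Signals are linear MAS5 intensities, and the number of arrays limits their precision. Differences are log2 of 1 array's signal minus log2 of another's, and at least 2-fold is used as a mark of size only. A floor at the 40th percentile of each array (123 on FGFR3Act, 122 on FGFR3KO, 121 on FGFR3WT) stood in for detection calls, and a gene was compared in a pair where either array exceeded its floor. The Fgfr3 probe set itself read between 1.06 and 3.76, far below the floor, so it could not check the genotypes. The only technical yardstick was how far 2 probe sets of 1 gene differed in the same pair of arrays. Over 378 such genes in FGFR3Act against FGFR3WT the median disagreement was 0.31 on the log2 scale and its 90th percentile 0.90. In FGFR3KO against FGFR3WT these were 0.39 and 0.92 over 375 genes, and in FGFR3Act against FGFR3KO 0.43 and 1.23 over 363 genes. They say nothing of the spread between cultures.

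The cells' identity was checked on marker lists. Of 18 fibroblast markers on the array, 16 were above the floor on each of the 3 arrays, and their summed signal was 67576 in FGFR3WT, 91793 in FGFR3KO and 57240 in FGFR3Act. The sums are of deposited signals and were not taken under other scalings. Gene by gene, the markers' difference on FGFR3KO depended on scaling. The median log2 difference from FGFR3WT was 0.25 as deposited, with 11 of 16 higher. It was -0.01 after quantile normalisation, with 8 higher, and 0.07 after cyclic loess, with 9 higher. Of 22 macrophage and leukocyte markers, 1 exceeded the floor in FGFR3WT, 2 in FGFR3KO and 18 in FGFR3Act. Their summed signal was 1375, 1563 and 46595 in that order. No marker was at 0, but Ptprc, the pan-leukocyte antigen gene, was below the floor on all 3 arrays. In bulk RNA, fewer cells of a type and less RNA per cell cannot be told apart. The 3' over 5' signal ratio of the beta-actin control probe sets, a sign of RNA integrity, was 1.64 for FGFR3WT, 1.82 for FGFR3KO and 1.44 for FGFR3Act.

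Fmod and Vcan were the 2 genes that stood furthest between genotypes, both lower on FGFR3Act, so the 250 bases before their start sites are shown. The windows are from RefSeq, assembly GRCm38.p6, which also held those of Bgn, Ogn and Prelp. They are printed 5′ to 3′ on the gene's strand, with matches to 6 short motifs in capitals.
Fmod, chr1:134037004-134037253, plus strand: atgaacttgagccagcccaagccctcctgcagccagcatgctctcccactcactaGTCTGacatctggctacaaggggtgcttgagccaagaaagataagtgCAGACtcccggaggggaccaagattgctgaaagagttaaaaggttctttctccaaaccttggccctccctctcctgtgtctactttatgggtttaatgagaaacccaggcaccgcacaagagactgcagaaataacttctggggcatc
Vcan, chr13:89742513-89742762, minus strand: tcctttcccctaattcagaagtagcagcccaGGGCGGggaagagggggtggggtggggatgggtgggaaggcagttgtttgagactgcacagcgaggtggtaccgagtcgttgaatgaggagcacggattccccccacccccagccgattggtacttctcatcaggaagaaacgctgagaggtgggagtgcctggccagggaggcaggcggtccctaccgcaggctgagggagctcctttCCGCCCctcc
Both strands were searched. The TATA box was written TATAAA for this search, and the GC box of Sp1 factors as GGGCGG instead. For the AP-1 site the letters used were TGANTCA, where N stands for any base. The core of the site bound by CREB was given as TGACG, while the box bound by SMAD proteins was given as CAGAC. For TEAD factors the letters were GGAATG. The Fmod window held 2 SMAD boxes, 148 and 195 bases before the start, and no match to the other 5. The Vcan window held 2 GC boxes, 10 and 219 bases before the start, and no match to the other 5. Of 32851 windows of this length, 42.2% held at least 1 SMAD box and 32.7% at least 1 GC box. Both motifs are thus common. Among the other members' windows, that of Bgn had 3 GC boxes, that of Prelp 1 SMAD box and that of Ogn neither. The G and C content was 51.2% for Fmod and 62.4% for Vcan, against a median of 52.4%. The 2 windows shared none of the 6 motifs. A match describes the letters only and shows no binding.

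The 6 genes differed in direction and size. On FGFR3Act against FGFR3WT, 4 were lower and 2 higher, and the difference ranged from -2.98 for Fmod to 0.52 for Bgn. Of these, 2 were lower by 2-fold or more, Fmod and Vcan, and 0 higher by as much, where 4.79% of 5244 genes were that far lower and 4.14% that far higher. On FGFR3KO against FGFR3WT, 1 gene, Vcan, was higher by 2-fold or more and 0 lower by as much, against 1.93% and 3.61% of 5184 genes. On FGFR3Act against FGFR3KO the 2 lower by 2-fold or more were again Fmod and Vcan and 0 were higher by as much, against 7.49% and 8.33% of 5297 genes. The median of the 6 genes was -0.47, 0.29 and -0.44 in the 3 pairs, beside medians over all genes of -0.07, -0.02 and -0.05. The 3 pairs share arrays and are not independent of each other.

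**Figure D1:**
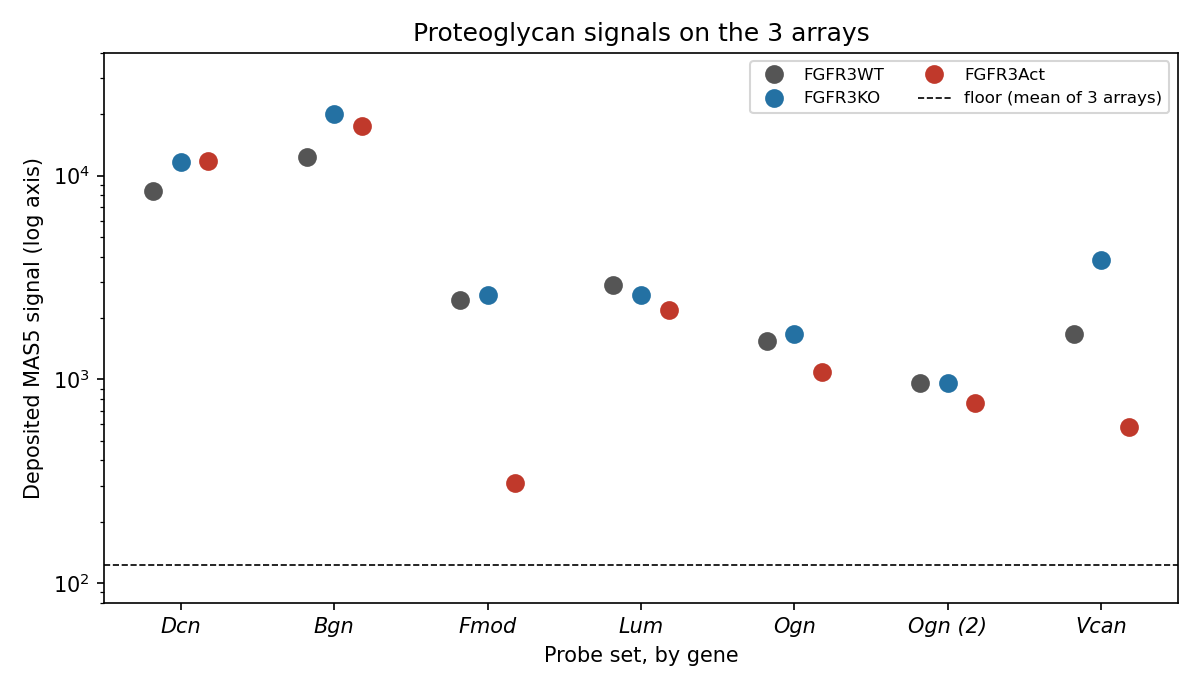
Deposited MAS5 signal (log axis) of the 7 probe sets on the 3 arrays, 1 point per array, with the second Ogn probe set marked (2) and the mean floor as a dashed line. Fmod on FGFR3Act (308) and Vcan on FGFR3Act (580) sit nearest the floor, and the probe sets' levels are not comparable with each other.

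Decorin and biglycan, the class I pair, were both higher on each mutant array than on wild type as deposited, but after quantile normalisation and cyclic loess the Dcn difference on FGFR3KO was -0.04 and -0.01. Decorin is the most abundant dermal member of the family and binds TGF-beta as well as collagen. The Dcn signal was 11734 on FGFR3Act, 11663 on FGFR3KO and 8376 on FGFR3WT. As deposited, the mutant arrays were nearly level and wild type was the low one, by 1.40-fold against FGFR3Act (log2 difference 0.49) and 1.39-fold against FGFR3KO (0.48). Between the mutants the difference was 0.01 as deposited, 0.28 after quantile normalisation, 0.25 after cyclic loess and 0.62 with the median of the fibroblast markers subtracted. Quantile normalisation left 0.23 for FGFR3Act against FGFR3WT, so which of the arrays stood apart depended on the scaling.

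Biglycan, decorin's closest relative, also acts outside the matrix as a ligand of Toll-like receptors. The Bgn signal was 17549 on FGFR3Act, 20018 on FGFR3KO and 12274 on FGFR3WT. As for Dcn, wild type was the lowest, with FGFR3WT 1.43-fold below FGFR3Act and 1.63-fold below FGFR3KO. As log2 differences these were 0.52 and 0.71, which exceeded the median disagreement between probe sets but not its 90th percentile. After quantile normalisation they were 0.09 and 0.04, and after cyclic loess 0.19 and 0.02. Between FGFR3Act and FGFR3KO the Bgn difference was -0.19 as deposited and turned to 0.05 after quantile normalisation, 0.17 after cyclic loess and 0.42 with the median of the fibroblast markers subtracted. The beta-actin control probe sets, also bright, stood 1.36 to 1.55 times above FGFR3WT on FGFR3Act and 1.48 to 1.65 times on FGFR3KO. The 5' control probe set of Gapdh went the other way, from 6019 on FGFR3WT to 3323 on FGFR3Act and 5478 on FGFR3KO. Whether bright probe sets as a whole account for the Dcn and Bgn differences was not tested.

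Fibromodulin showed the largest difference of the 6 genes. It binds collagen fibrils and the crosslinking enzyme lysyl oxidase. The Fmod signal was 308 on FGFR3Act, 2579 on FGFR3KO and 2440 on FGFR3WT. FGFR3Act alone was low, 7.91-fold below FGFR3WT (log2 difference -2.98) and 8.36-fold below FGFR3KO (-3.06), while the other 2 arrays differed by 0.08. On FGFR3Act the signal was still 2.51 times the floor, so at that floor these are measured folds and not bounds. With the floor at the 60th percentile it lay below, and the differences became bounds, -2.86 from FGFR3WT and -2.94 from FGFR3KO. Of 5244 genes, 4 including Fmod lay at or below its difference from FGFR3WT, and of 5297 genes, 5 including Fmod lay at or below its difference from FGFR3KO. Over 11 alternatives the difference from FGFR3WT stayed between -2.98 and -2.70 and that from FGFR3KO between -3.07 and -2.45. The small difference between FGFR3KO and FGFR3WT ranged from -0.17 to 0.19 and has no settled sign.

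Lumican, the class II relative of fibromodulin that is known for the transparency of the cornea, did not share that difference. The Lum signal was 2177 on FGFR3Act, 2604 on FGFR3KO and 2916 on FGFR3WT. FGFR3Act was again the lowest and FGFR3WT the highest, but the arrays lay within 1.34-fold of each other. The log2 difference from FGFR3WT was -0.42 on FGFR3Act and -0.16 on FGFR3KO. Across the alternatives that could move them they ranged from -0.48 to -0.14 and from -0.42 to -0.05. As deposited, the FGFR3KO difference was smaller than the median disagreement between probe sets of 0.39. The difference of -0.26 between FGFR3Act and FGFR3KO turned to 0.35 once the median of the fibroblast markers was subtracted.

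Osteoglycin, also called mimecan, is a small keratan sulfate proteoglycan of bone and connective tissue, and the only one of the 6 genes with an internal check. Its brighter probe set read 1081 on FGFR3Act, 1672 on FGFR3KO and 1549 on FGFR3WT. The dimmer one read 765, 956 and 954 in that order. Both put FGFR3Act lowest and FGFR3KO close to wild type. The log2 difference on FGFR3Act against FGFR3WT was -0.52 by the brighter and -0.32 by the dimmer probe set, a disagreement of 0.20. Against FGFR3KO it was -0.63 and -0.32. These are under 2-fold, and subtracting the fibroblast marker median left -0.24 and -0.02 for the brighter probe set.

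Versican was low on one mutant array and high on the other. The Vcan signal was 580 on FGFR3Act, 3857 on FGFR3KO and 1668 on FGFR3WT. FGFR3Act was 2.88-fold below FGFR3WT (log2 difference -1.53) and FGFR3KO 2.31-fold above it (1.21), which put the mutants 6.66-fold apart (-2.73). Of 5244 genes, 53 including Vcan lay at or below its difference on FGFR3Act, and of 5184 genes, 49 including Vcan lay at or above its difference on FGFR3KO. Each of the 3 differences exceeded the 90th percentile of the disagreement between probe sets. Subtracting the fibroblast marker median took the FGFR3KO difference to 0.96, just under 2-fold, while the FGFR3Act difference stayed between -1.53 and -1.25 over 11 alternatives.

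**Figure D2:**
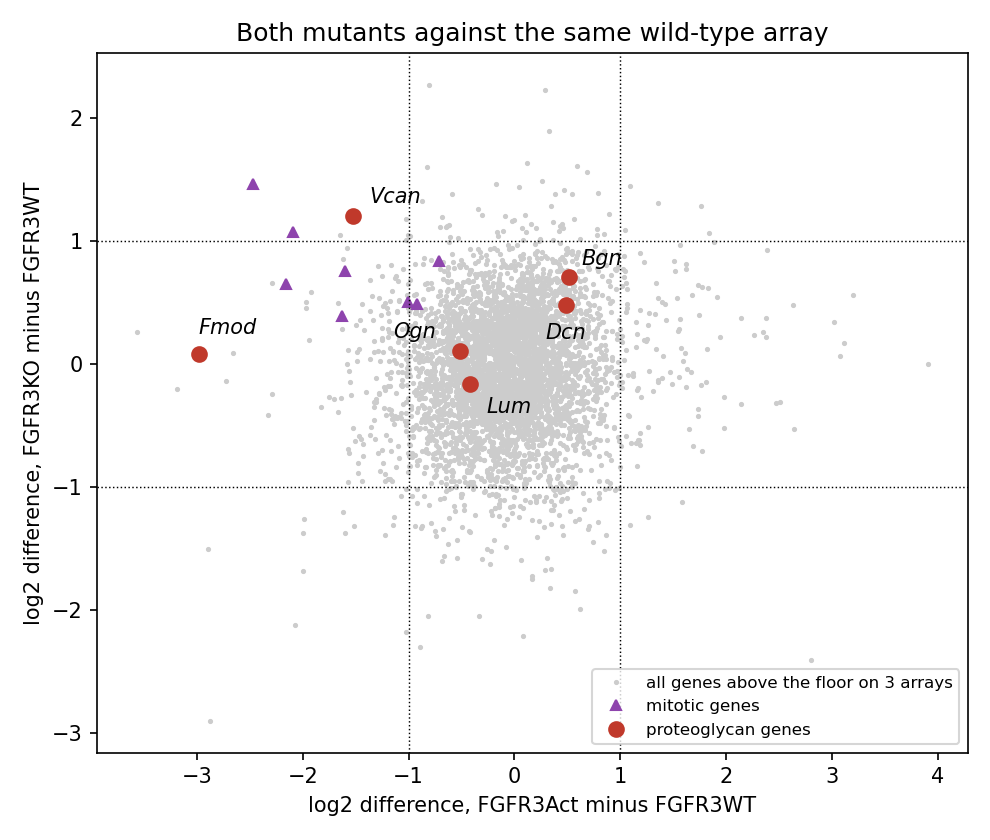
Log2 difference of FGFR3KO minus FGFR3WT against that of FGFR3Act minus FGFR3WT for genes above the floor on all 3 arrays (grey), with the 6 proteoglycan genes in red, mitotic genes as triangles and 2-fold marks as dotted lines. Both axes share the wild-type array. Vcan lies at -1.53 and 1.21, in the same quadrant as the 8 mitotic genes shown, Fmod at -2.98 and 0.08, and the other 4 genes inside the 2-fold marks. The 3 genes nearest to Vcan (Ect2, Stmn1 and Nusap1) are off the mitotic list and drawn in grey.

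Few genes were apart from wild type in opposite directions as Vcan was. Of 5046 genes compared in both pairs, 13 were lower on FGFR3Act and higher on FGFR3KO by 2-fold or more each. In the reverse direction, higher on FGFR3Act and lower on FGFR3KO by as much, there were 8. Beside Vcan the group of 13 held 12 genes, 5 of them on the mitotic list. Of that list 13 genes were compared in each pair. Among the 5, Kif11, Mki67 and Ttk were below the floor on FGFR3Act, so their differences there are bounds. Off the mitotic list were Ect2, Kif20a, Kif22, Mad2l1, Aoc3, Dlk1 and Mdk. The list does not hold every gene of cell division. The 3 genes nearest to Vcan in both differences from FGFR3WT, by Euclidean distance among 4497 genes above the floor on 3 arrays, were Ect2, a cytokinesis factor (distance 0.20), Stmn1, a microtubule-destabilising protein gene (0.27), and Nusap1, a spindle protein gene (0.36). Ect2 was 3.14-fold lower on FGFR3Act and 2.07-fold higher on FGFR3KO. The likeness of these 3 genes to Vcan in both differences follows from that choice. The measure rests on 3 arrays and 2 differences that share one of them.

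Of 14 mitotic genes on the array, 13 were above the floor on FGFR3KO and on FGFR3WT and 8 on FGFR3Act. The summed signal of the 14 was 3143 on FGFR3Act, 17592 on FGFR3KO and 9840 on FGFR3WT. On FGFR3KO the 13 genes exceeded wild type under each scaling, with a median of 0.84 as deposited. Of these, 6 were at least 2-fold higher as deposited, where 1.93% of 5184 genes were that far higher. On FGFR3Act 13 of 13 were lower, 10 at least 2-fold as deposited, against 4.79% of 5244 genes. The 10 became 9 after quantile normalisation, 8 after cyclic loess and 5 after median centring. Kif11, Ttk, Top2a, Aurka and Mki67 were below the floor on FGFR3Act, so their differences there are bounds. Kif23, a cytokinesis kinesin gene, was 5.53-fold lower on FGFR3Act and 2.76-fold higher on FGFR3KO. Cdc20, which activates the anaphase-promoting complex, was 4.27-fold lower on FGFR3Act. The part of cell division in the Vcan difference was not tested.

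The 3 genes nearest to Fmod were Mfap2 (distance 0.33), Fndc1 (0.34) and Mest (0.35). Mfap2, a microfibril protein gene, read 327 in FGFR3Act, 2195 in FGFR3KO and 2065 in FGFR3WT. Fndc1, which encodes a protein with fibronectin type III domains, read 145, 870 and 957 in that order. Mest, an imprinted gene, read 341, 2696 and 3101. Each was low on FGFR3Act and near wild type on FGFR3KO, which the choice by nearness to Fmod fixed in advance.

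**Figure D3:**
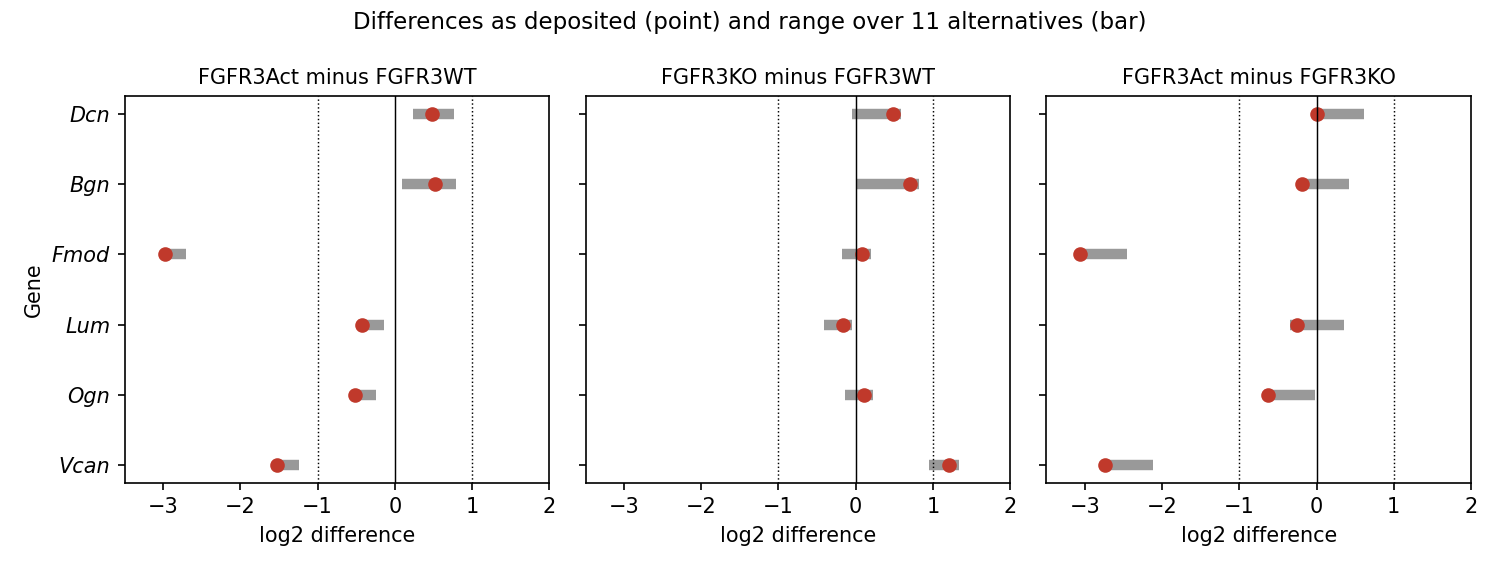
Log2 difference of each gene in the 3 pairs of arrays as deposited (points), with the lowest and highest value over 11 processing alternatives (bars) and 2-fold marks as dotted lines. The Fmod and Vcan bars stay left of the 2-fold mark in both pairs with FGFR3Act, while those of Dcn and Bgn in FGFR3KO minus FGFR3WT reach down to -0.04 and 0.02.

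Some of the genes are close neighbours. In RefSeq assembly GRCm38.p6, Dcn and Lum lie on chromosome 10 with 0 coding genes between them. Their differences on FGFR3Act against FGFR3WT were 0.49 for Dcn and -0.42 for Lum, of opposite sign. Fmod and Prelp lie on chromosome 1 with 0 coding genes between them. Ogn and Vcan share chromosome 13 with 281 coding genes between them, and Bgn lies on chromosome X.

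Other members of the small leucine-rich family were mostly dim. Keratocan (Kera) and epiphycan (Epyc) were below the floor on all 3 arrays. Osteomodulin (Omd) was above it on FGFR3WT alone, at 147. Chondroadherin (Chad), of class IV, read 184 in FGFR3Act, 157 in FGFR3KO and 162 in FGFR3WT, within 1.17-fold of each other. Of the large hyaluronan-binding proteoglycans beside Vcan, neurocan (Ncan) and brevican (Bcan) were below the floor throughout. Aggrecan (Acan), the cartilage relative of versican, read 68.5 on FGFR3Act, below the floor, 319 on FGFR3KO and 202 on FGFR3WT. That put FGFR3Act at least 1.64-fold below FGFR3WT and at least 2.60-fold below FGFR3KO, in the same order as Vcan but at dim signals.

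Genes that act on or with these proteins were read from lists beside the members. Of 5 fibrillar collagen genes, 0 were at least 2-fold from FGFR3WT on either mutant array as deposited. On FGFR3Act their median was -0.15 as deposited, with 4 of 5 lower. It was -0.51 after quantile normalisation and -0.45 after cyclic loess, with 5 of 5 lower in both, and -0.01 after median centring, with 3 lower. Type III collagen (Col3a1) was furthest, at 4166 against 8069 (1.94-fold lower). Col3a1 passed 2-fold after quantile normalisation (-1.23) and cyclic loess (-1.14). On FGFR3KO the median was 0.57 and 5 of 5 were higher, but after quantile normalisation it was -0.07 with 2 of 5 higher. Against FGFR3KO, 5 of 5 were lower on FGFR3Act under each scaling, Col3a1 by 2.42-fold.

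Among 3 genes of tyrosine sulfation and fibril crosslinking, 0 were 2-fold apart in any pair. Lysyl oxidase (Lox), which fibromodulin binds, read 8348 on FGFR3Act, 6219 on FGFR3KO and 6178 on FGFR3WT. Lox was thus 1.35-fold higher as deposited on the array where Fmod was 7.91-fold lower. Its log2 difference from FGFR3WT there was 0.43, and 0.24 after either quantile normalisation or cyclic loess. The latter is below the median disagreement between probe sets of 0.31. Loxl1, its relative in elastic fibre assembly, was 1.91-fold lower on FGFR3Act and 1.67-fold lower on FGFR3KO. Tpst1, a sulfotransferase that modifies tyrosines of proteins such as fibromodulin, was 1.75-fold lower on FGFR3Act and 1.28-fold lower on FGFR3KO.

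Among enzymes of the sugar chains, 2 stood at least 2-fold from wild type. Of the chondroitin and dermatan sulfate synthesis genes, B3gat3, Chpf, Papss1 and Papss2 were above the floor on all 3 arrays and lay within 2-fold in each pair. B3galt6 was below the floor on FGFR3WT and at least 1.67-fold higher on FGFR3Act and 1.51-fold on FGFR3KO. The chondroitin polymerising factor gene Chpf read 1335, 1289 and 1564 on FGFR3Act, FGFR3KO and FGFR3WT. Of 3 keratan sulfate genes, B3gnt2, which extends the lactosamine backbone, was one of them. Its signal was 662 on FGFR3Act, 139 on FGFR3KO and 363 on FGFR3WT, which put FGFR3KO 2.62-fold below wild type and 4.78-fold below FGFR3Act. The other was Ugdh, which makes the UDP-glucuronate used for hyaluronan and chondroitin chains. Its signal of 8578 on FGFR3Act was 2.18-fold above FGFR3WT (3943) and 2.32-fold above FGFR3KO (3697), and cyclic loess took the first to 0.99, just under 2-fold. On that array Vcan, which carries such chains, was at its lowest.

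Of the other hyaluronan genes, Cd44 and Hyal2 lay within 2-fold of wild type on both mutant arrays. The hyaluronan synthase gene Has2 was below the floor on FGFR3Act, at least 1.37-fold under FGFR3WT, and 1.21-fold higher on FGFR3KO. The hyaluronan receptor gene Cd44 read 291 on FGFR3Act, 218 on FGFR3KO and 218 on FGFR3WT. The link protein gene Hapln1, a chromosomal neighbour of Vcan, was below the floor on all 3 arrays. Of the versican-cleaving proteases listed, Adamts1 was the only one on the array and was below the floor on all 3.

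Of 8 receptor and growth factor genes bound by decorin or biglycan that could be compared on FGFR3Act against FGFR3WT, 1 was higher by 2-fold or more, and 1 lower. Cd14, a co-receptor of Toll-like receptors that is also on the macrophage marker list, was 3.52-fold higher. Tgfb2 was 2.13-fold lower, from 663 to 312, though under 2-fold after quantile normalisation (-0.97), cyclic loess (-0.91) and median centring (-0.95). On FGFR3KO the furthest was Tgfb2, 1.70-fold lower, while Vegfa, below the floor on both mutant arrays, has only a bound.

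**Figure D4:**
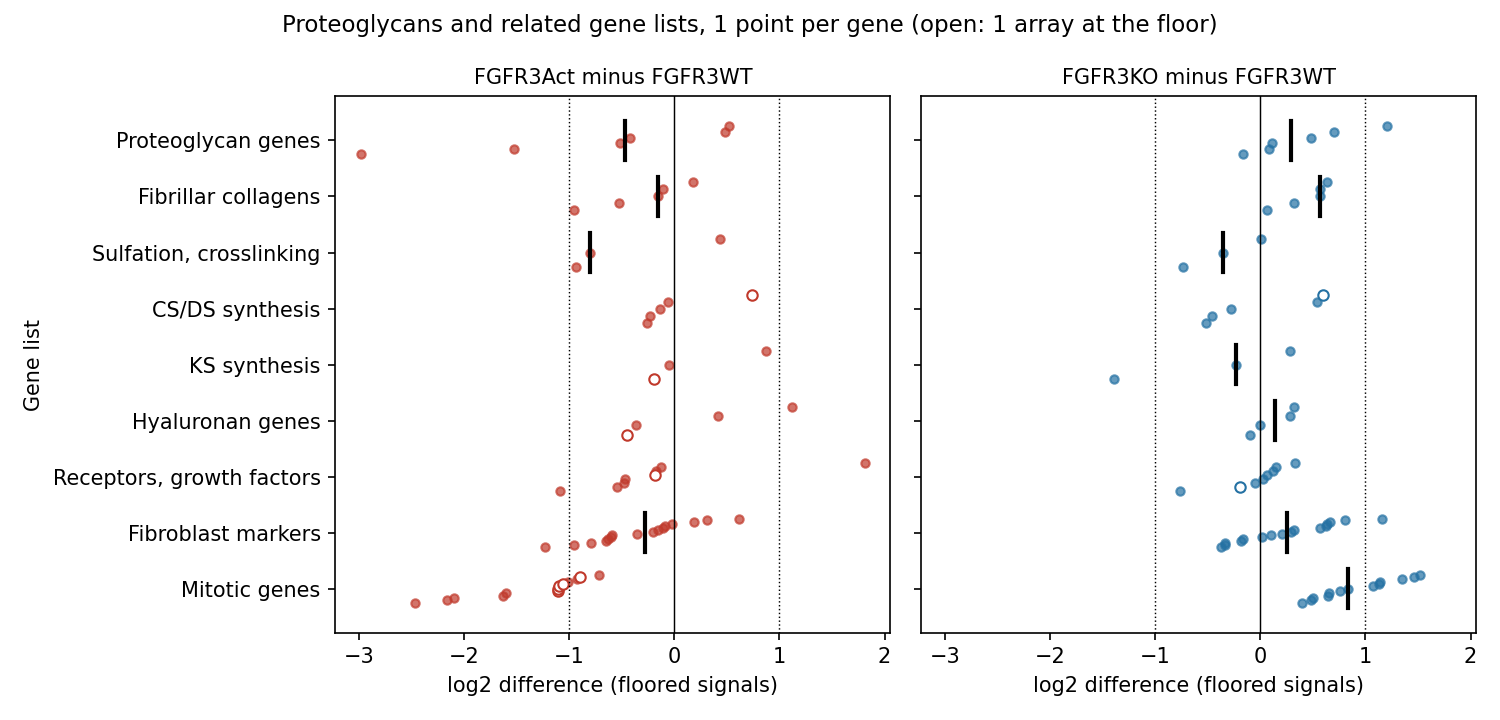
Log2 difference of floored signals on FGFR3Act (left) and FGFR3KO (right) against FGFR3WT, 1 point per gene that could be compared, with open points for genes below the floor on 1 of the arrays, whose difference is a bound, and a black bar at the median of each list without such genes (CS/DS, chondroitin and dermatan sulfate; KS, keratan sulfate). The proteoglycan genes spread from -2.98 to 0.52 on the left and from -0.16 to 1.21 on the right.

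The low Fmod and Vcan signals were on the array rich in macrophage markers. There, 18 of the 22 such markers passed the floor, against 1 in FGFR3WT, and the other 4 (Ptprc, Itgam, Aif1 and Marco) did not. Cathepsin S (Ctss) was at least 94.6-fold and lysozyme (Lyz2) at least 58.3-fold higher. On the same array 13 of 16 fibroblast markers were lower than on FGFR3WT as deposited (median -0.28), 1 of them at least 2-fold, the PDGF receptor gene Pdgfrb (2.35-fold). The median was -0.51 after quantile normalisation and -0.48 after cyclic loess, each with 2 at least 2-fold lower. After median centring it was -0.14, with 10 of 16 lower. With the fibroblast marker median of the deposited values subtracted, the difference from FGFR3WT was -2.70 for Fmod and -1.25 for Vcan. The part of the macrophage transcripts in these differences was not tested.

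Markers of other cell types were few. Of the keratinocyte markers only Krt1 passed the floor, on FGFR3KO, and of the endothelial markers only Eng could be compared. Of the smooth muscle and pericyte markers, Mcam was 2.49-fold, Notch3 2.42-fold and Cnn1, the calponin gene, 1.51-fold lower on FGFR3Act, while Acta2, the brightest, was 1.21-fold higher. On FGFR3KO Cnn1 was 2.61-fold and Acta2 1.71-fold higher, while Mcam was 1.53-fold and Notch3 1.18-fold lower. The Acta2 log2 difference on FGFR3KO was 0.77 as deposited, 0.37 after quantile normalisation and 0.40 after cyclic loess. On FGFR3Act these were 0.27, 0.06 and 0.10. Myh11 passed the floor on FGFR3KO alone, at least 3.06-fold above FGFR3WT. The tendon transcription factor gene Scx read 803 on FGFR3Act, 1528 on FGFR3KO and 758 on FGFR3WT, 2.02-fold higher on FGFR3KO. Of the adipocyte markers Lpl was 1.43-fold higher on FGFR3Act, and of the melanocyte and Schwann cell markers Sox10 was 1.67-fold higher on FGFR3KO. Their part in the Vcan difference was not tested.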

How the data were processed

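RNA of 3 dermal fibroblast samples, 1 per genotype, (15 μg each) was labelled as biotinylated cRNA for Affymetrix arrays, per the labels' protocols. The authors deposited 1 linear intensity per probe set and sample, made with MAS5 per the submitters' processing notes. Its version, scaling target and detection calls, and whether a column pools cultures, were not given in the sources used here. Of 9889 probe sets, 9053 had 1 gene symbol in GEO's platform annotation, of which 9041 were updated through their gene identifiers with RefSeq (GRCm38.p6), and 323 had several and were not named. Control probe sets were left out of the genes. The brightest probe set by mean log2 stood for a gene. Dimmer signals were set to the floor before log2 was taken, which makes differences of dim probe sets smaller, and no further scaling was applied. MAS5 as usually run applies 1 scale factor per array, so differences that depend on brightness stay in the values.

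The members and lists were chosen with earlier results of these data known. The members were named with all their probe sets. Of each other list, up to 4 genes at least 2-fold apart were eligible, or the 2 furthest apart. Others named complete a list, a pattern or a partner and were chosen after their values were seen. Among them are Chpf, Cd44, Lox, Hapln1, Adamts1, Chad, Acta2, Vegfa, Ptprc, Itgam, Aif1, Marco and the dim relatives of the members. The genes apart in opposite directions as Vcan was are among them too. The 3 genes nearest in pattern were taken for each member at least 2-fold apart in any pair. Alternatives were quantile normalisation, cyclic loess, median centring, subtraction of the fibroblast marker median, a floor at the 20th or at the 60th percentile, an offset of 12.0 in place of the floor, a filter on both arrays of a pair, no filter, the mean over probe sets, omission of _s_ and _x_ probe sets, and for counts a fold of 1.5. The arithmetic was tested on simulated data. Python 3.11.15, pandas 2.3.3, numpy 2.4.6 and statsmodels 0.14.6 were used.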

Additional observations from a re-analysis of the deposited data

How the results depend on the processing

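Of 198 values of single genes under the 11 alternatives, 187 kept their side of 2-fold and moved by less than the median disagreement between probe sets, or stayed at least 2-fold apart. The exceptions were Bgn, Dcn, Lum, Ogn and the FGFR3KO difference of Vcan, most of them given with their values above. The number of proteoglycan genes at least 2-fold apart in FGFR3KO against FGFR3WT was 1 as deposited, 0 with the fibroblast marker median subtracted and 2 at a fold of 1.5. The median of the 6 genes in FGFR3Act against FGFR3KO, -0.44 as deposited, turned to 0.17 with the fibroblast marker median subtracted, which by construction adds 0.61 to each gene in that pair. Median centring moved the median of all genes by 0.14 in FGFR3Act against FGFR3WT and by 0.11 in FGFR3KO against FGFR3WT. Leaving out the _s_ and _x_ probe sets, and the filters, could not alter members that are all of the _at kind and above the floor. The other floors altered only Fmod, at the 60th percentile, and the mean over probe sets only Ogn. Many of the 198 values thus could not move. No paired analysis was possible because each genotype had 1 array and no replicate numbers, and for the same reason no array could be left out. Single arrays cannot separate genotype from culture, and signals near the floor, such as those of Acan, Omd and Has2, limit what can be said of dim genes.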
